A study of Mus musculus with 8 samples.

Results

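The genes described here encode receptors through which blood cells sense myeloid growth factors: Csf2rb, Csf2rb2, Csf2ra, Il3ra, Csf1r and Csf3r. They are 6 of the 20665 autosomal protein-coding genes in the RefSeq table used. The sites described were the CpGs from 5 kb before to 5 kb after each gene, with both strands merged, that had at least 10 reads in at least 3 mice of each group. This rule kept 276 CpGs of the 846 listed there for any mouse, out of 1278034 autosomal CpGs kept in the series. The set was chosen by a measured value: Csf2rb had lower methylation in the knockouts of these same mice, so the Csf2rb differences are descriptions without a test.

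Most of these cytokine receptors lack a kinase of their own and signal through JAK kinases and STAT factors. GM-CSF, IL-3 and IL-5 each bind a receptor with a private alpha subunit and a shared beta subunit encoded by Csf2rb, and mice carry a second beta subunit gene, Csf2rb2, used with the IL-3 receptor alpha subunit. Csf1r, the receptor for M-CSF and IL-34, is a receptor tyrosine kinase, and Csf3r is the G-CSF receptor of granulocyte development. In mammals, promoters of active genes are mostly unmethylated at CpG islands, while gene bodies and the sequence between genes are mostly methylated.

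The assay was enhanced reduced representation bisulfite sequencing: bisulfite turns unmethylated cytosines into thymine before CpG-rich restriction fragments are sequenced. Hematopoietic stem cells were isolated from the marrow of C57BL/6 mice as Lin-, c-Kit+, Sca-1+, Flk2-, CD150+ and CD48- cells. Group 1 was 4 Atg12flox/flox:Mx1-Cre knockout mice (numbers 25, 28, 45 and 46), whose Cre is driven by an interferon-inducible promoter and so is not limited to blood, and group 2 was 4 control mice (1, 34, 36 and 37). Mice of both groups received poly(I:C) at 4 weeks of age, so the controls carry that exposure too, and cells were taken 2 to 3 months later. The design text gives the controls as Atg12flox/flox without Cre and their genotype label reads WT, so their alleles are uncertain. Each sample was a separate mouse.

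Each mouse had between 2038266 and 3366162 listed cytosines, and the median coverage of the 1087161 autosomal CpGs with enough reads in all 8 mice was 212 to 293 reads. Y cytosines made up 7.90 to 9.01 of every 10000 listed in the knockouts against 1.15 to 1.83 in the controls. X cytosines made up 1.83 to 1.93% in the knockouts against 2.42 to 2.54% in the controls. Genotype therefore cannot be told apart from X and Y content, or from the sex behind it, anywhere here. The libraries also differed in how well they covered methylated DNA. The median coverage of methylated CpGs was 0.176 times that of unmethylated ones in control 34 and 0.242 times in knockout 25, against 0.322 to 0.554 in the other mice. Of 10 stem cell marker genes, 7 had at least 3 CpGs within 500 bp of a start, and these averaged 0.275% methylation or less, Kit at 0.131% and Gata2 at 0.275%. None of the 5 B cell, 6 T cell or 10 granulocyte and monocyte markers had such CpGs, so those cells could not be looked for, and of 5 erythroid markers Epor, the erythropoietin receptor, was the one measured, at 26.7% in the knockouts against 18.1% in the controls over 3 CpGs, whose part in the results was not tested.

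Promoter sequence was at hand for 4 of the 6 genes (RefSeq, GRCm38.p6), and 3 of these held measured CpGs. Their 250 bases before the transcription start are shown because the measured CpGs of Csf2ra were partly methylated there and those of Il3ra and Csf3r were not. The annotated gene begins before the start used in Csf3r (126023441 against 126024659) and Il3ra (14345912 against 14346495). Those 2 windows therefore lie inside the annotated genes. Csf2ra, on the minus strand, reaches 61228461, against a start used at 61228418. Sequences run 5′ to 3′ on the strand of the gene, and capitals mark the CpGs that were measured.
Csf2ra, chr19:61228419-61228668, minus strand: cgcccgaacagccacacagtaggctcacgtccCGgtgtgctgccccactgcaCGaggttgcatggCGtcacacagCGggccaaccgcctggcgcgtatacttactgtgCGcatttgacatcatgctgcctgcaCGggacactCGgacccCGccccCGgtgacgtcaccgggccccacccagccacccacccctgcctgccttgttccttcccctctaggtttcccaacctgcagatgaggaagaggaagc
Il3ra, chr14:14346245-14346494, plus strand: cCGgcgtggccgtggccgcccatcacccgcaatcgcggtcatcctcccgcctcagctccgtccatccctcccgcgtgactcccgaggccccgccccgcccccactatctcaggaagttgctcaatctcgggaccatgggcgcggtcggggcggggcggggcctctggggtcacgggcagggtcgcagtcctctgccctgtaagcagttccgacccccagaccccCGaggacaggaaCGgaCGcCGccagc
Csf3r, chr4:126024409-126024658, plus strand: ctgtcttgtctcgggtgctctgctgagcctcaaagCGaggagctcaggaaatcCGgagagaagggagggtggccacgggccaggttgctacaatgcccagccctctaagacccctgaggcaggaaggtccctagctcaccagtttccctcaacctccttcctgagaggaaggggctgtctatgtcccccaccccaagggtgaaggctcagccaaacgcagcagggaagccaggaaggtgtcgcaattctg
Of 17 CpGs in the Csf2ra stretch 9 were measured, of 27 in Il3ra 5, and of 6 in Csf3r 2. The median promoter of 32817 in the table has 6 CpGs in a window of this length. Averaged over the mice with enough reads, the marked Csf2ra CpGs lay between 19.2% and 92.1%, those of Il3ra between 0% and 0.388%, and those of Csf3r between 0% and 0.481%. In the Csf2ra stretch the first 5 marked CpGs lay between 67.7% and 92.1% and the last 4, nearer the start, between 19.2% and 34.1%. The Csf2rb2 window (chr15:78305722-78305971, minus strand) held 3 CpGs, none of them measured. The motif CCGG, the cut site of MspI, reads alike on both strands and occurred 3 times in the Csf2ra window, once in those of Il3ra and Csf3r and not in that of Csf2rb2, against 47.0% of all promoters with at least 1. The motif GAGGAAG, core of many sites of the myeloid factor PU.1, was searched on both strands and counted with overlaps. It occurred 2 times in the Csf2ra window and 1 time in those of Csf3r and Csf2rb2, but not in that of Il3ra, and 10.6% of all promoters held it.

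The 6 genes covered the range from almost fully methylated to almost unmethylated. The level of a gene region is the mean over CpGs with enough reads in all 8 mice, each CpG with equal weight. In order of the mean over 8 mice, Csf2rb2 stood at 97.1% (4 CpGs), Csf1r at 82.5% (16), Csf2rb at 49.5% (7), Il3ra at 40.4% (35), Csf2ra at 11.4% (161) and Csf3r at 11.3% (9). Neighbours in this order whose ranges over mice overlapped were Csf2rb (43.7 to 59.96%) and Il3ra (36.01 to 45.9%), and Csf2ra (9.31 to 13.6%) and Csf3r (8.44 to 13.7%). The ranges of the other neighbours did not overlap, Csf2rb2 lying between 90.5% and 100% and Csf1r between 74.4% and 86.6%. The measured CpGs sit at unlike places in the genes, so the order is one of these CpGs, not of promoters or gene bodies. For Csf3r, 5 of its 9 CpGs lay beyond the gene, next to Mrps15. Over the 276 kept CpGs, 191 averaged under 20%, 31 from 20 to 80% and 54 over 80%, and 146 of the low ones lay in Csf2ra.

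**Figure D1:**
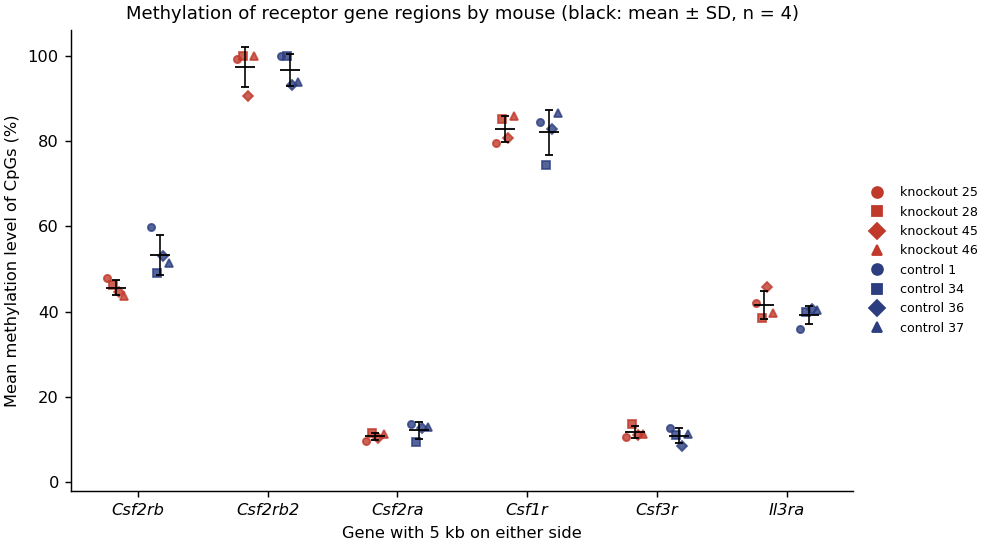
Methylation level of each gene region (y axis, mean over CpGs in percent) in each mouse, knockouts in red and controls in blue, with a symbol for each mouse and black bars for the mean ± SD (n = 4). Csf2rb is the one gene where the 4 knockouts (43.7 to 47.8%) lie below the 4 controls (49.0 to 59.96%), the difference for which the genes were chosen.

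Csf2rb was the one gene of the 6 whose region separated the groups. Its level was 47.8, 46.4, 44.7 and 43.7% in knockouts 25, 28, 45 and 46, and 59.96, 49.0, 53.0 and 51.5% in controls 1, 34, 36 and 37. All knockouts lay below all controls, with 45.7 ± 1.81% against 53.4 ± 4.70% (SD, n = 4), a difference of -7.71 percentage points that is described here without a test. Of the 12798 gene regions tested in the series, 2.74% had groups that did not overlap, from which nothing is read here. All 7 Csf2rb CpGs in the tested range of levels had a lower mean in the knockouts. At each of these 7 the ranges of the groups overlapped.

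The difference by which the genes were chosen lay in 4 neighbouring CpGs at chr15:78326277-78326354, inside the gene and 477 to 554 bases from its lower-coordinate end. Summed over these CpGs, 972 to 2297 reads per mouse gave 12.9, 14.4, 8.44 and 13.3% in knockouts 25, 28, 45 and 46. The controls 1, 34, 36 and 37 had 29.5, 15.7, 22.4 and 23.0%. The groups did not overlap, at 12.3 ± 2.62% and 22.7 ± 5.64% (SD, n = 4), but control 34 lay 1 SD or more below the other controls and close to knockout 28. Of 37390 CpG clusters tested over the genome 3.53% had groups that did not overlap, and since the cluster chose the set nothing is read from this. With equal weight for each CpG the knockouts had 13.2, 12.8, 13.1 and 12.2% and the controls 35.1, 13.5, 25.8 and 26.4%, so control 34 was 13.5% against 13.2% in knockout 25.

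The 4 CpGs did not behave alike. At the first, 78326277, the levels were 23.9, 30.4, 47.9 and 27.6% in knockouts 25, 28, 45 and 46, and 37.9, 27.2, 50.2 and 38.8% in controls 1, 34, 36 and 37. At the second, 78326322, the knockouts had 4.59 to 13.3% and the controls 9.40 to 16.2%. At both the groups overlapped, with means that differed by -6.10 and -3.40 percentage points. At the third, 78326333, knockouts 28, 45 and 46 were at 0% and knockout 25 at 8.99%, while controls 1, 34, 36 and 37 were at 42.2, 0, 12.8 and 24.0%. At the last, 78326354, the knockouts had 11.2, 7.72, 0 and 10.7% and the controls 44.95, 10.5, 31.0 and 32.9%. Control 34 fell within the knockouts' range at both of these CpGs, and the other 3 controls lay above every knockout there. The means differed by -17.5 and -22.4 percentage points.

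**Figure D2:**
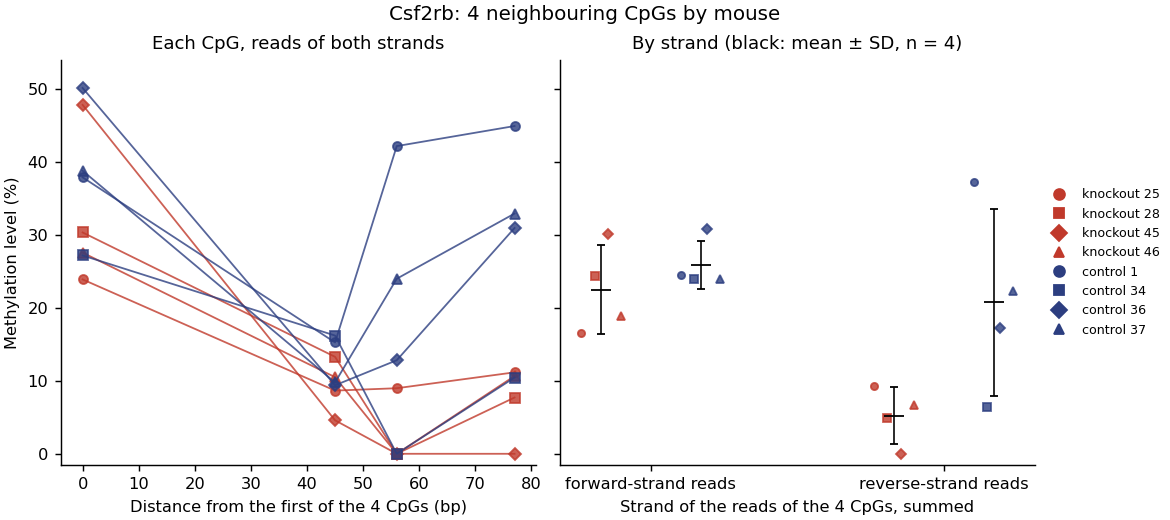
Left, methylation level (y axis, percent) of the 4 Csf2rb CpGs against distance from the first of them (x axis, bp), 1 line per mouse. Right, the level of the same CpGs by the strand of the reads, with black bars for the mean ± SD (n = 4); forward-strand reads gave 22.5 and 25.8% in knockouts and controls, reverse-strand reads 5.23 and 20.8%.

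The 4 CpGs were read from different strands. Reverse-strand reads made up 0.472% of the reads of the first CpG, 43.7% of the second, 99.1% of the third and 100% of the last. Forward-strand reads gave 16.6, 24.4, 30.2 and 18.8% in knockouts 25, 28, 45 and 46 and 24.6, 24.0, 30.8 and 24.0% in controls 1, 34, 36 and 37. Reverse-strand reads gave 9.33, 4.92, 0 and 6.67% in the knockouts against 37.3, 6.37, 17.2 and 22.3% in the controls. On forward reads the groups overlapped, with 22.5 ± 6.08% against 25.8 ± 3.30%, and on reverse reads 3 controls stood above every knockout, with 5.23 ± 3.93% against 20.8 ± 12.8% (SD, n = 4). At the second CpG, the one read well from both strands, the means differed by -0.528 percentage points on forward reads and -6.70 on reverse reads. Its reverse reads gave 7.84, 7.36, 0 and 9.35% in the knockouts and 24.7, 8.61, 7.74 and 10.3% in the controls. Knockout 45 and control 1 stood apart from the other mice there, and the group ranges overlapped. Since the last 2 CpGs had almost no forward reads, position and strand cannot be told apart there.

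Control 34, the mouse with the lowest coverage of methylated DNA, was the control nearest the knockouts over the summed reads of the 4 CpGs. At 78326322 alone it was the highest control, at 16.2%. Whether coverage had a part in its level was not tested. Leaving out control 34, the lowest control there, could only widen the difference over the 4 CpGs. The difference was then -12.7 percentage points, and -12.9 without knockout 25 as well, against -10.4 in all mice. Leaving out control 1, the highest control, could only narrow it, to -8.13. The other Csf2rb CpGs lay 21.8 to 26.9 kb from the same end. The CpG at 78347637 was at 100% in every mouse, and 78347827 at 0% in knockout 28, with 65.0 to 100% in the other 6 mice covered there, so its mean difference of -30.7 points, the largest of a Csf2rb CpG, came mostly from that mouse. The CpG at 78352708, just beyond the gene, had 78.2 ± 17.8% in the knockouts against 81.5 ± 5.23% in the controls (SD, n = 4). The gene regions whose level most resembled that of Csf2rb over the 8 mice, of 12798 tested, were Vamp9 (Pearson r 0.935), Ank (0.932) and Gsg1 (0.924), given as a description over mice that fall into the 2 groups.

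Csf2rb2, the second beta subunit gene, was close to fully methylated wherever it was measured. Its 4 kept CpGs, 19901 to 20090 bases after the transcription start, averaged 94.4 to 100% over the mice. The region level was 99.2, 100, 90.5 and 100% in knockouts 25, 28, 45 and 46 and 100, 100, 93.2 and 93.9% in controls 1, 34, 36 and 37. The groups overlapped at 97.4 ± 4.62% and 96.8 ± 3.75% (SD, n = 4), and the region lay above the 95% limit for testing. The CpG with the largest negative difference, 78285812, was at 62.1% in knockout 45, 93.3% in control 36 and 100% in the other 6 mice (adjusted p = 0.823). The one with the largest positive difference, 78285820, was at 75.6% in control 37, 96.8% in knockout 25, 98.2% in control 36 and 100% in the other 5. Single mice therefore carried the differences between the means.

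Over the whole table of CpGs, 20 of 313880 passed an adjusted p of 0.05 in the moderated quasi-binomial model (0.00637%). None of the 97 tested receptor CpGs outside Csf2rb did. Unadjusted, 5 of these 97 had p under 0.05, 4 in Csf2ra and 1 in Csf1r. For comparison, 20437 of the 313880 CpGs did. No cluster passed in the series (0% of 37390) and no gene region (0% of 12798), and 2498 clusters and 562 gene regions had an unadjusted p under 0.05. With Csf2rb included, the mean was lower in the knockouts at 58 of the 104 tested receptor CpGs and higher at 46, beside 53.7% lower among all tested CpGs. All 7 tested Csf2rb CpGs, from the gene chosen for its lower level, are among the 58, so nothing is read from this count. The background for clusters was 52.5% lower and for gene regions 52.2%. The counts in the receptor genes are set beside these and not tested.

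Csf2ra, the alpha subunit of the GM-CSF receptor, held 172 of the 276 CpGs and showed an unmethylated stretch inside the gene with methylated flanks. The 95 CpGs at chr19:61226225-61227291, 1127 to 2193 bases after the transcription start, averaged 1.63 ± 0.462% in the knockouts against 1.93 ± 0.693% in the controls (SD, n = 4). Farther into the gene the cluster of 24 CpGs at chr19:61225667-61226078 had 6.35 ± 2.98% and 6.78 ± 2.79%, and the 23 CpGs at chr19:61225286-61225535 had 19.9 ± 4.97% and 20.5 ± 6.60%. The CpGs at 4068 and 4166 bases were at 97.4% and 96.9% over the 8 mice. Methylation thus rose from the stretch into the gene in both groups. The larger part of the rise lay beyond these clusters, between 3132 and 4068 bases after the start, where no CpG was kept.

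The cluster nearest the Csf2ra start, 9 CpGs at chr19:61228512-61228635 and marked in the sequence above, was partly methylated. It had 62.0, 65.3, 54.1 and 61.9% in knockouts 25, 28, 45 and 46, and 57.5, 60.3, 68.5 and 54.6% in controls 1, 34, 36 and 37. The groups overlapped fully, at 60.8 ± 4.76% and 60.2 ± 5.97% (SD, n = 4; moderated quasi-binomial model, adjusted p = 0.997), which was also the largest positive difference of a Csf2ra cluster. The largest negative one lay at chr19:61228020-61228057, 361 to 398 bases after the start. There the 4 CpGs had 11.1, 17.7, 18.4 and 4.89% in the knockouts against 28.5, 16.9, 33.7 and 11.6% in the controls. Controls 1 and 36 lay above all knockouts and controls 34 and 37 among them, so 13.01 ± 6.34% and 22.7 ± 10.2% did not pass (adjusted p = 0.848). Within this cluster 61228057 had 0, 15.5, 0 and 4.24% in the knockouts against 26.0, 14.2, 28.5 and 15.8% in the controls.

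Of the 67 tested Csf2ra CpGs, 39 had a lower and 28 a higher mean in the knockouts, and none passed. The CpG at 61225675 was among the higher ones, with 18.5, 28, 10.1 and 3.10% in knockouts 25, 28, 45 and 46 and 1.15, 0, 8.09 and 0% in controls 1, 34, 36 and 37 (adjusted p = 0.765). The smallest p belonged to 61216746, just beyond the gene, with 84.6, 100, 100 and 50.5% in the knockouts against 79.6, 100, 100 and 98.8% in the controls (adjusted p = 0.762). Its mean difference of -10.8 points came mostly from knockout 46. At the Csf2ra gene region as a whole the knockouts had 9.66, 11.6, 10.3 and 11.4% and the controls 13.6, 9.31, 12.7 and 13.03%. The difference was -1.43 percentage points (SE 0.938; limma, adjusted p = 0.996), and 3 of 4 controls lay above every knockout. It was -2.38 without control 34 (adjusted p = 0.413), -0.953 without control 1 and -0.491 with reads summed.

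**Figure D3:**
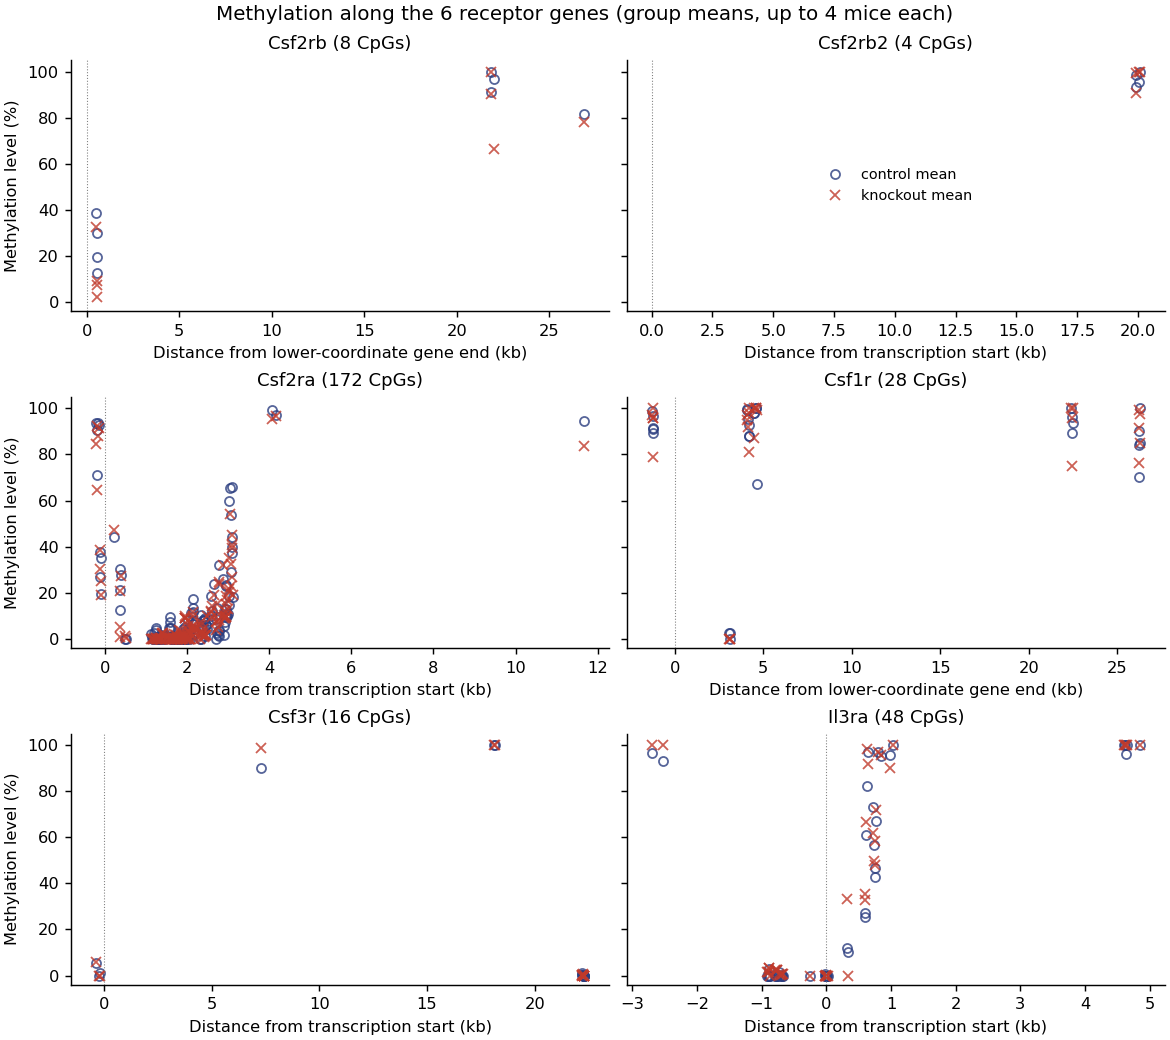
Group mean methylation (y axis, percent) of each kept CpG against distance (x axis, kb) from the transcription start, or from the lower-coordinate gene end for Csf2rb and Csf1r, with controls as blue circles and knockouts as red crosses. Csf2ra and Il3ra show an unmethylated stretch with a rise to methylated sequence, Csf1r 3 CpGs near 0% among methylated ones, and Csf2rb2 group means of 90.5 to 100%.

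Il3ra, the alpha subunit of the IL-3 receptor, had an unmethylated start and a sharp rise behind it. The 16 CpGs at chr14:14345578-14345819, at -917 to -676 bases from the start, had 1.08 ± 1.54% in the knockouts against 0.313 ± 0.360% in the controls (SD, n = 4), and knockout 25 alone reached 3.32%. The CpGs between 249 bases before and 21 bases after the start averaged 0 to 0.388%, and those from 4603 to 4854 bases after it 98.4 to 100%. The cluster between them, 12 CpGs at chr14:14347085-14347341, had 78.7, 74.6, 85.5 and 79.3% in knockouts 25, 28, 45 and 46. Controls 1, 34, 36 and 37 had 75.2, 77.4, 77.4 and 81.1%. The groups overlapped at 79.5 ± 4.51% and 77.8 ± 2.43% (adjusted p = 0.949).

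Within that Il3ra cluster the CpGs themselves differed more than the mice. The first 2, 590 and 596 bases after the start, averaged 30.2 and 29.9% over the 8 mice, and the last 2, at 802 and 846 bases, 97.0 and 95.5%. The CpG with the smallest p, 14347119, had 93.8, 100, 100 and 100% in the knockouts against 66.7, 79.3, 100 and 83.8% in the controls (adjusted p = 0.774). The gene region stood at 41.5 ± 3.21% in the knockouts against 39.2 ± 2.17% in the controls, a difference of 2.29 points (SE 1.72; limma, adjusted p = 0.996), whose sign was not kept when reads were summed (-0.0807). It was 0.847 without knockout 45 and 1.21 without control 1. Knockout 45, at 45.9%, and control 1, at 36.01%, were the extremes.

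Csf1r, the M-CSF receptor, was methylated in most of the measured CpGs, with 25 of 28 over 80%. The exceptions were 3 CpGs at chr18:61108664-61108698, about 3.1 kb into the gene from its lower-coordinate end. They read 0% wherever they were covered except 10.7% at the first in control 1 and 10.2% at the third in control 37, with 31 to 314 reads per value. Knockout 45 had no value at the first. Methylated CpGs lay on both sides: the 4 in a cluster at chr18:61104271-61104371, before that end, had 93.2 ± 8.91% in the knockouts against 94.0 ± 7.97% in the controls. The 4 at chr18:61109667-61109761 had 95.3 ± 5.12% and 97.0 ± 1.66% (SD, n = 4).

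Both of these Csf1r clusters overlapped between groups. By mouse the first had 99.7, 93.1, 80.6 and 99.3% in knockouts 25, 28, 45 and 46 and 99.8, 82.2, 97.0 and 97.0% in controls 1, 34, 36 and 37 (adjusted p = 0.970). The second had 88.7, 98.6, 100 and 93.8% and 96.9, 97.0, 95.1 and 99.1%, and lay above the 95% limit. The third, of 3 CpGs at chr18:61110177-61110224, had 100, 99.8, 100 and 99.4% in the knockouts against 92.3, 66.1, 96.4 and 100% in the controls (99.8 ± 0.274% and 88.7 ± 15.4%; adjusted p = 0.732). Its difference sat in one CpG: the first 2 of the 3 were at 100% in all 8 mice, and 61110224 had 98.3 to 100% in the knockouts against 80, 0, 89.1 and 100% in the controls (adjusted p = 0.762). Without control 34 the cluster difference was 3.57 points, against 11.1 in all mice. The 61131797 CpG lay just beyond Csf1r and inside the neighbouring protein-coding gene Hmgxb3, which spans 61131277 to 61177050. It was the one tested receptor CpG whose groups did not overlap, with 100, 98.0 and 100% in knockouts 25, 28 and 45 and 96.6, 0, 95.8 and 87.8% in the controls (adjusted p = 0.806), knockout 46 having no value there. Among all tested CpGs 3.14% had groups that did not overlap, against 1 of the 104 in the receptor genes. The gene region stood at 82.8 ± 3.11% and 82.1 ± 5.32% (limma, adjusted p = 0.9986), with control 34 lowest at 74.4%.

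Csf3r was unmethylated beside the start used here in both groups. That start, 126024659, lies inside the annotated gene, and the long non-coding RNA gene Gm32908 (126011050 to 126024654) overlaps the window before it. The 2 CpGs marked in its promoter sequence were at 0% in every mouse except 3.85% at the second in control 1, with 50 to 184 reads each. A CpG 380 bases before the start had 22.8% in knockout 28, 6.35% in control 1 and 14.6% in control 36, and 0% in the other 5 mice. Inside the gene, 126031961 was at 60.9% in control 36, 95.7% in knockout 25 and 100% in the other 6 mice (adjusted p = 0.833), and 2 CpGs about 18.1 kb in were at 100% in all 6 mice covered.

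The one Csf3r cluster, 5 CpGs at chr4:126046842-126046916, lay beyond the gene and next to Mrps15, which begins at 126046928 and encodes a mitochondrial ribosomal protein. It had 0.0670, 0.0786, 0.0784 and 0.480% in the knockouts against 0.840, 0.0375, 0.106 and 0.391% in the controls, under the 5% limit for testing. The Csf3r region level of 11.7 ± 1.34% and 10.9 ± 1.76% (SD, n = 4) averages 9 CpGs, including the 5 of this cluster beyond the gene. Of the 9, 126031961 was the one methylated and the others averaged 5.47% or less. The difference of 0.853 points (SE 0.971) did not pass (limma, adjusted p = 0.996). It was 0.0408 without control 36, 0.201 without knockout 28 and 1.44 without control 1.

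**Figure D4:**
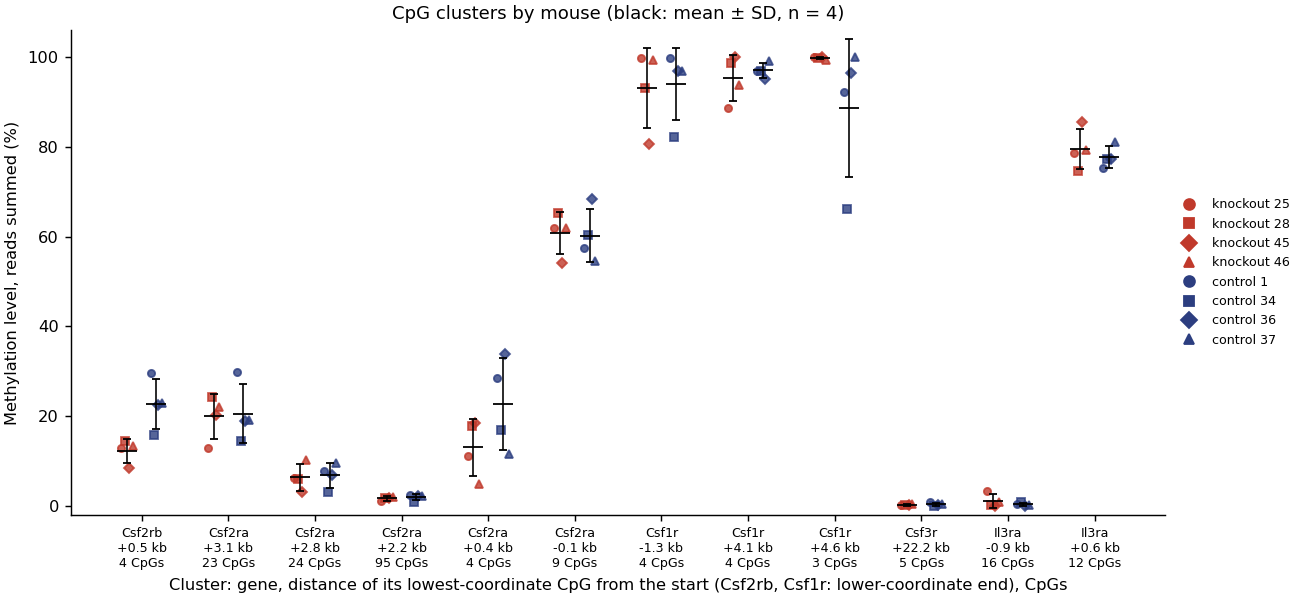
Methylation level (y axis, percent, reads summed over the CpGs) of the 12 CpG clusters of the receptor genes (x axis, with the distance of each from the start and its number of CpGs) in each mouse, black bars giving mean ± SD (n = 4). The groups overlap in every cluster except that of Csf2rb, where the knockouts lie at 8.44 to 14.4% and the controls at 15.7 to 29.5%.

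The spread between mice was wide for the depth. Over the 104 tested receptor CpGs the median SD within a group was 12.4 percentage points, against 2.97 expected from the read numbers alone, and the median ratio of observed to binomial variance was 16.9, beside 16.1 over all tested CpGs. Reads without molecular identifiers can be copies of few DNA molecules, and the number of molecules behind these levels was not measured. The median absolute difference between groups was 5.96 points in the receptor CpGs and 7.17 over all tested CpGs. The 44 CpGs just inside the coverage rule, with 3 covered mice in the group with fewer, averaged 37.5% (median 3.39%), and the 48 just outside it, with 2, averaged 49.7% (median 64.5%).

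Other genes of the pathway passed no test. Of 22 further receptors and ligands 17 were measured and 15 tested, with 8 lower and 7 higher in the knockouts against a median difference of -0.0469 points. The smallest p in each direction belonged to Thpo, the ligand of the thrombopoietin receptor, with 5.84 ± 0.498% against 6.61 ± 0.619%, and to Csf3, which encodes G-CSF, with 94.99 ± 1.40% against 88.6 ± 7.23% (SD, n = 4; limma, adjusted p = 0.996 for both). Of 40 signalling genes all 40 were measured and 31 tested, with 17 lower, 14 higher and a median difference of -0.173 points. There the smallest p belonged to the adaptor Shc1, at 13.4 ± 0.335% against 12.4 ± 0.249%, and among lower genes to the kinase Fes, at 56.2 ± 1.04% against 58.2 ± 1.14% (limma, adjusted p = 0.996 for both). The median difference over all 12798 gene regions was -0.0330 points.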

How the data were processed

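Per the file headers, the authors deposited for each of 8 mice a table of cytosines with a coverage, a count of reads, and the percent of reads showing C or T; CASAVA 1.8.2, Bismark and mm10 are named per the submitters' processing notes, and filters and duplicate handling are not given in any source used here. No listed cytosine had under 10 reads. Methylated reads were recovered as coverage times percent, and strands were merged. CpGs were tested with a logistic model on genotype whose quasi-binomial overdispersion was moderated by limma 3.58.1 (squeezeVar, R 4.3.3) (adjusted by Benjamini-Hochberg over all tested features), as were CpG clusters (at least 3 CpGs at most 100 bp apart, enough reads in all mice). Gene regions were tested with limma on mean levels. Only mean levels of 5 to 95% were tested. Gene positions are from RefSeq, GRCm38.p6; strand and exons of Csf2rb and Csf1r are not given there. The members and lists were chosen with earlier results of these data known. Named were, per gene, the cluster nearest the start, those with the largest difference in each direction, and the CpG with the smallest p (in Csf2rb the 4 CpGs described earlier), plus the pathway genes with the smallest p each way; other CpGs were chosen after their values were seen. Each library is a separate mouse, and mouse numbers pair no samples across groups. Alternatives are given in the closing section. Errors are SDs between mice. The tests were checked on simulated data.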

Additional observations from a re-analysis of the deposited data

Results flagged for a closer look

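In 4 of the 36 sets of 4 mice examined (6 gene regions and 12 clusters in each group), 1 mouse lay far from the other 3. The rule used, Dixon's ratio, marks about 1 in 20 sets of independent, normally distributed values. These levels are bounded percentages, and clusters share CpGs with gene regions, so nothing is read from the count. Knockout 45 had 90.5% in the Csf2rb2 region, against 99.2 to 100% in the other knockouts. Control 1 had 36.01% in the Il3ra region, against 40.02 to 40.6% in the other controls. Control 34 had 82.2% in the Csf1r cluster from 61104271, against 97.0 to 99.8%. Knockout 46 had 0.480% in the cluster beyond Csf3r, against 0.0670 to 0.0786%. None of the 4 is in Csf2rb.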

How the results depend on the processing

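Outside Csf2rb, no receptor CpG, cluster or gene region passed the threshold under any alternative run. Over the whole table the 20 called CpGs became 39 with at least 20 reads, 0 without the filter on mean level and 0 with limma on log2 ratios, and 1 to 184 when 1 mouse was left out (1 without knockout 25, 184 without knockout 45, 38 without control 1, 47 without control 34). Called clusters, 0 in all mice, numbered 0 to 14 with 1 mouse left out (14 without control 34, 8 without knockout 45) and 8 without knockout 25 and control 34. Called gene regions, 0 in all mice, numbered 0 to 1, with 1 called without control 1. Among all gene regions 52.2% were lower in the knockouts, and 72.6% with reads summed. The cause of these changes was not tested.

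The Csf2rb region difference ran from -11.5 to -5.51 points over the alternatives. For the 4 CpGs it ran from -15.5 (reverse-strand reads) to -3.35 (forward-strand reads). Since Csf2rb was chosen for this difference and its groups did not overlap, leaving out mice could not change the sign. Nothing is read from the sign being kept. The strand split and equal weights were added after seeing the data. Differences that changed sign, none of them called, were those of the Csf2rb2 region (-0.535 to 2.97 with 1 mouse left out, negative without knockout 28, knockout 46, control 36 or control 37), the Csf1r region (-1.52 with at least 20 reads, -0.686 without knockout 25 and control 34, -1.78 to 2.28 with 1 mouse left out) and the Il3ra region (-0.0807 with reads summed). With 1 mouse left out, cluster differences ran from -2.69 to 2.49 (Csf2ra from 61225286), -1.73 to 0.687 (from 61225667), -1.27 to 3.35 (from 61228512), -4.75 to 3.37 (Csf1r from 61104271) and -0.222 to 3.41 (Il3ra from 14347085). CpG differences ran from -10.98 to 1.67 (Csf2rb2), -16.2 to 0.293 (Csf2ra) and -1.08 to 11.97 (Csf3r). The sign changes of the Csf2rb2, Csf2ra and Csf3r CpGs came without knockout 45, knockout 46 and control 36. Adjusted p over the alternatives was 0.413 or more for gene regions outside Csf2rb. No paired analysis was possible because the mouse numbers of the groups are not shared. Few molecules may stand behind the CpGs with 10 to 100 reads, but their number was not measured. How the spread between mice depends on depth was not tested.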
